A study of Rattus norvegicus with 12 samples.

Results

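The opioid and cannabinoid receptors of the rat dorsal root ganglion, with a pair of opioid peptide precursors whose products act on opioid receptors, were followed through age and caloric restriction. The genes were Oprm1, Oprd1, Oprk1 and Oprl1 (the mu, delta, kappa and nociceptin receptors), Cnr1 and Cnr2 (the CB1 and CB2 cannabinoid receptors), Penk (proenkephalin) and Pdyn (prodynorphin). They were chosen by name: every gene probe whose accession matched one of these symbols was taken. This gave 8 genes with 12 probes and 39 spots per array, out of 15154 named genes, 30367 probes and 58717 spots. Oprm1 had 3 probes, Oprl1 and Cnr1 had 2 each, and the other genes had 1 each.

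RNA came from L6 dorsal root ganglia, which hold the cell bodies of sensory neurons entering the spinal cord at that level, of male inbred Fischer 344 rats, and was hybridised to 12 one-colour Agilent arrays. The young_AL group was 6 months old and fed ad libitum, and the old_AL group, fed the same way, was 25 to 28 months old. The old_CR group had the age of old_AL but, since 6 weeks of age, was given food on 3 days of each week, which came to about 40% caloric restriction. Each group had 4 rats and 4 arrays. Old_AL against young_AL sets age at ad libitum feeding apart, old_CR against old_AL sets diet in old rats apart, and in old_CR against young_AL both differ.

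Opioid and cannabinoid receptors couple to inhibitory G proteins. In sensory neurons their activation opens inwardly rectifying potassium channels, closes voltage-gated calcium channels and lowers cyclic AMP, which reduces transmitter release toward the spinal cord. Their ligands are made in different ways: opioid peptides are cut from precursor proteins such as Penk and Pdyn, while endocannabinoids are lipids cleaved from membrane phospholipids on demand.

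The array of old_AL 1 stood apart, with a 75th percentile of signal of 7662 against 2634 to 3110 on the others, 4026 unevenly lit spots against 1 to 208, and a median correlation with the other arrays of 0.929 against 0.971 to 0.994. Tests are therefore given first on the other 11 arrays (n = 3 for old_AL, n = 4 for the other groups) and then on all 12. Of these 11, old_AL 4 had a 25th percentile of 79.7 against 37.7 to 44.6. The young_AL arrays lay on one slide and all old arrays on another, so slide cannot be told apart from age. The old_AL and old_CR arrays shared a slide but filled different rows of it, so diet and row cannot be told apart. Pan-neuronal markers were measured on all 11 arrays for 8 of 10 genes, as were 15 of 16 nociceptor markers, and 2 pan-neuronal genes and 1 nociceptor gene had no matched probe. In RNA of whole ganglia, fewer cells of a type and less RNA per cell cannot be told apart.

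All 8 genes were detected well enough to be tested, and 1 of them, Cnr1, passed an adjusted p of 0.05, in old_CR against young_AL. That is 1 of 8 genes against 2.41% of the 20849 tested in that comparison. None of the 8 passed in old_AL against young_AL, where 3.24% of all genes did, or in old_CR against old_AL, where 1.06% did. At an unadjusted p under 0.05 the counts were 2 of 8 with age (Cnr1 and Cnr2, background 23.1%), 3 of 8 with diet (Cnr1, Oprm1 and Penk, background 26.4%) and 3 of 8 in old_CR against young_AL (the same 3 genes, background 18.3%). The first share lay near its background, and the other two were above theirs by fewer than 2 genes. With every probe tested on its own, 0 of 12 probes passed with age (background 2.52%), 0 of 12 with diet (0.91%) and 2 of 12, both of Cnr1, in old_CR against young_AL (2.34%). On all 12 arrays the genes that passed were 0.0191%, 0.00478% and 0.0191% of 20942 in the 3 comparisons and included none of the 8. At an unadjusted p under 0.05 on 12 arrays none of the 8 passed either, against 6.71%, 5.96% and 2.72% of all genes.

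**Figure D1:**
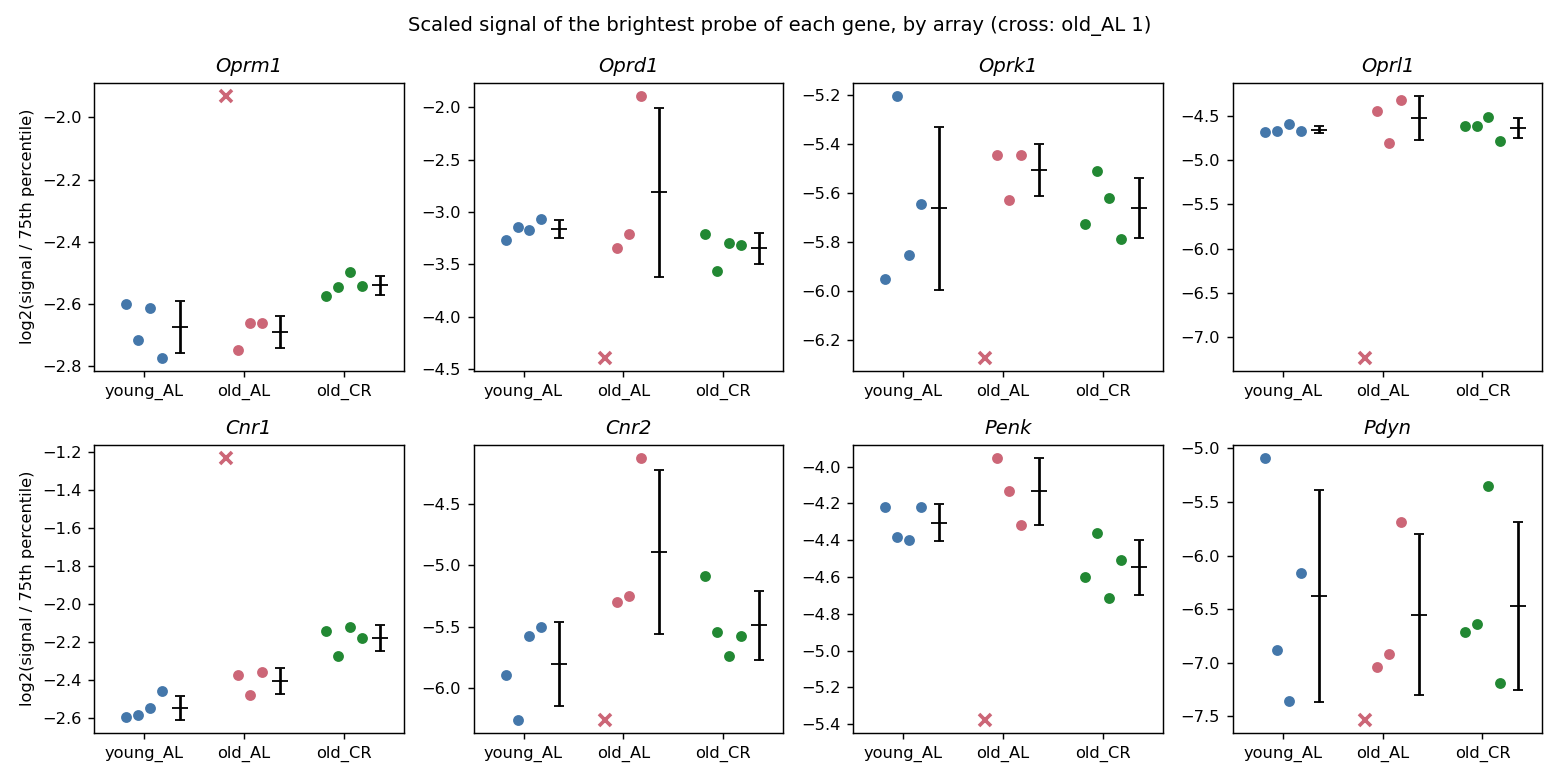
Level of the brightest probe of each of the 8 genes on every array, as log2 of its signal over the array's 75th percentile, in young_AL (blue), old_AL (red) and old_CR (green). The cross is old_AL 1, and each black bar is the mean ± SD of the other arrays of the group (n = 4, 3 and 4). Every old_CR point of Cnr1 lies above every young_AL point, while Pdyn and Oprk1 overlap across groups.

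Cnr1, the CB1 receptor through which anandamide and 2-arachidonoylglycerol act on neurons, was highest in old_CR and lowest in young_AL. Levels are given here as scaled signal, the probe's signal in percent of its array's 75th percentile, which compares arrays for one probe but not one probe with another. On the probe with 10 spots per array (A_44_P1030258), the 4 young_AL arrays read 16.5, 16.6, 17.05 and 18.2%. Old_AL 2, 3 and 4 read 19.3, 17.9 and 19.5%, and the 4 old_CR arrays read 22.6, 20.7, 23.0 and 22.05%. Old_CR lay above every young_AL array and above these 3 old_AL arrays, though not above old_AL 1, while old_AL 3 fell within the young_AL range.

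Cnr1 rose in old_CR against young_AL by 0.37 ± 0.05 (log2 difference ± SE, n = 4 and 4), a 1.29-fold difference with a 95% interval of 0.26 to 0.48 and an adjusted p of 0.0126. The call held in 10 of 11 repeats with a further array dropped and was lost without young_AL 3, at an adjusted p of 0.0529. In such repeats, here and below, dropping an array of the group not compared leaves the difference itself unchanged. Of the difference between old_CR and old_AL, 0.23 ± 0.05 was measured with an adjusted p of 0.0644, and old_AL against young_AL gave 0.14 ± 0.05 with an adjusted p of 0.155. On all 12 arrays old_CR against young_AL kept its size of 0.37 while its SE grew to 0.23 and its adjusted p to 1. With diet, the 12 arrays gave a log2 difference of −0.07 ± 0.23, opposite in sign to that on 11 arrays.

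The second Cnr1 probe (A_43_P11563, 2 spots) gave the same order of young_AL below old_CR but placed old_AL elsewhere. Its scaled signals were 12.5, 13.0, 11.5 and 12.0% in young_AL, 15.5, 14.5 and 13.7% on old_AL 2 to 4, and 14.5, 15.0, 16.5 and 15.2% in old_CR. Here both old groups lay above young_AL and overlapped each other. It rose in old_CR against young_AL by 0.32 ± 0.06 (adjusted p = 0.0277 with every probe tested), and old_AL against young_AL gave 0.25 ± 0.06 (adjusted p = 0.0618). Diet in old rats gave 0.07 ± 0.06, with a 95% interval of −0.07 to 0.21. Both probes thus placed old_CR above young_AL on every array, and they differed on whether old_AL lay near young_AL or near old_CR. Across the 11 arrays the log2 values of the 2 probes correlated at r = 0.775, over arrays that share the groups.

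The readings of old_AL 1 for Cnr1 went opposite ways, 42.7% on the first probe, above the other 11 arrays, and 7.14% on the second, below them. The 10 spots of the first probe spread by an SD of 0.02 to 0.08 on the log2 scale on the other 11 arrays and by 0.13 on old_AL 1. Pan-neuronal markers were read as a mean log2 level over 8 genes relative to young_AL. They ran from −0.03 to 0.04 in young_AL, −0.05 to −0.04 on old_AL 2 to 4 and −0.05 to 0.07 in old_CR. Nociceptor markers, over 15 genes, ran from −0.07 to 0.12, −0.13 to 0.10 and −0.21 to −0.05 in the same order. Large-diameter neuron markers, over 12 genes, ran from −0.03 to 0.03, −0.10 to −0.07 and −0.07 to 0.002. In old_CR against young_AL on 11 arrays, 0 of 8, 0 of 15 and 2 of 12 of these genes passed, beside 2.41% of all genes. The 2 were lower in old_CR, and none passed on 12 arrays. The 7 measured of 10 genes listed for spinal cord neurons and central glia ran from −0.11 to 0.12 in young_AL, 0.35 to 0.89 in old_AL and 0.19 to 0.34 in old_CR. Gad2, Mog and Olig2 were not well above background, and Slc6a5 was so on 4 of the 11 arrays. Whether cells of the ganglion itself also express genes of this list was not tested. The part of these markers in the Cnr1 difference was not tested.

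**Figure D2:**
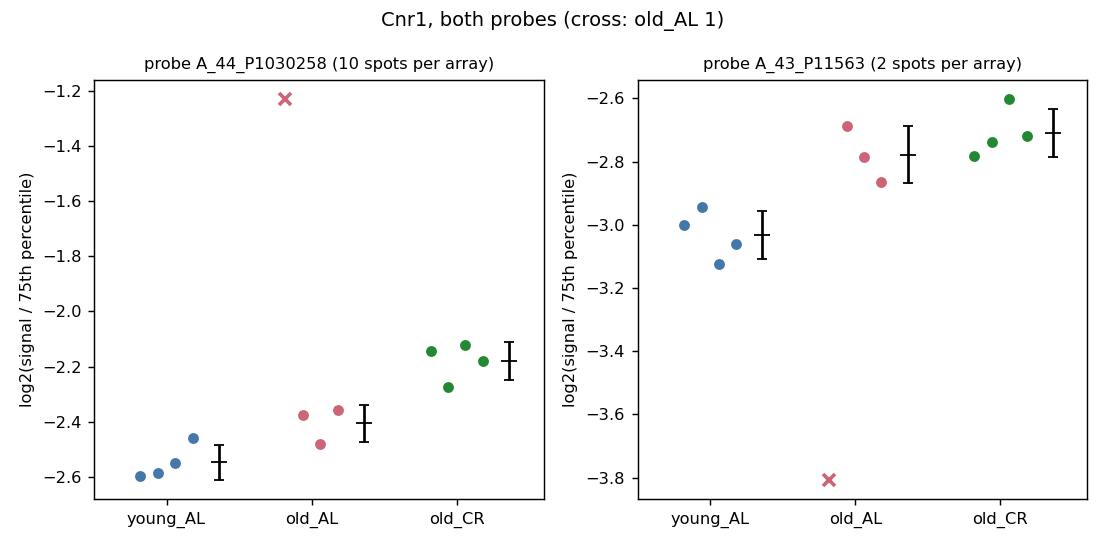
Log2 of scaled signal of Cnr1 on its 2 probes, by array, for young_AL (blue), old_AL (red) and old_CR (green), with mean ± SD of each group as black bars without old_AL 1, the cross. Old_AL lies between the other groups on the left-hand probe and beside old_CR on the right-hand one, and the cross is the highest point on the left and the lowest on the right.

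Cnr2, the CB2 receptor, is known mainly from immune cells such as macrophages and B cells. Its scaled signal was low, at 1.69, 1.31, 2.09 and 2.20% in young_AL, 2.54, 2.62 and 5.73% on old_AL 2 to 4, and 2.94, 2.14, 1.87 and 2.09% in old_CR. These 3 old_AL arrays lay above every young_AL array, and old_AL 4 stood well above the rest. With age the log2 difference was 0.92 ± 0.30 (adjusted p = 0.121), and without old_AL 4 it was 0.53. With diet it was −0.60 ± 0.30 (adjusted p = 0.236), which without old_AL 4 was −0.21. On old_AL 1 Cnr2 read 1.30%, level with the lowest young_AL array, and the 12 arrays gave 0.57 ± 0.37 with age.

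Of the immune cell markers, 4 of 10 macrophage, 1 of 8 T cell, 2 of 5 neutrophil and 0 of 4 B cell genes rose with age on 11 arrays, beside 3.24% of all genes called. None did on 12 arrays, where 0.0191% of all genes were called. There 4, 2, 2 and 1, in the same order, had an unadjusted p under 0.05, beside 6.71% of all genes. All 10 macrophage markers were measured, and their mean log2 level relative to young_AL ran from −0.23 to 0.12 in young_AL, 0.70 to 1.09 in old_AL and 0.38 to 0.80 in old_CR. T cell markers (8 of 8 genes) ran from −0.30 to 0.37, 0.83 to 1.37 and 0.38 to 1.13 in the same order. Neutrophil markers (5 of 8 genes) ran from −0.46 to 0.54, 1.097 to 1.935 and 0.83 to 1.30. The 4 of 8 B cell markers that could be measured overlapped across groups, at −0.08 to 0.11, 0.10 to 0.39 and −0.11 to 0.33. On old_AL 1 the levels were 0.53 for macrophage, −0.33 for T cell, −0.57 for neutrophil and −0.14 for B cell markers. Of the B cell genes not measured, Cd79b and Blk were not well above background, and Cd79a and Ms4a1 had no matched probe. The part of the immune cell markers in the Cnr2 values was not tested.

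Oprm1, the mu receptor and the main target of morphine, differed little between groups. On its brightest probe (A_64_P061205) the scaled signals were 16.5, 15.2, 16.4 and 14.6% in young_AL, 14.9, 15.8 and 15.8% on old_AL 2 to 4, and 16.8, 17.1, 17.7 and 17.2% in old_CR. Every old_CR array lay by a small margin above every young_AL array and these 3 old_AL arrays, while young_AL and old_AL overlapped. The difference with diet was 0.15 ± 0.05 (95% interval 0.04 to 0.26, adjusted p = 0.112), and that of old_CR against young_AL was 0.13 ± 0.05 (adjusted p = 0.159). Age at ad libitum feeding gave −0.02 ± 0.05, with an interval of −0.13 to 0.10. On all 12 arrays the difference with diet was −0.04 ± 0.16, and old_AL 1 itself read 26.2%.

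The other Oprm1 probes match different transcript accessions of the gene, and they did not repeat the order of the first. Probe A_64_P061200 read 4.53 to 4.95% in young_AL, 4.27 to 4.68% in old_AL and 4.21 to 4.83% in old_CR, and its differences were −0.07, 0.03 and −0.05 in the order age, diet and both. Probe A_64_P032062 read 1.32 to 1.92% in young_AL, 1.35 to 1.87% in old_CR, and 2.06, 1.85 and 6.57% on old_AL 2 to 4. Its difference with age was 0.87 ± 0.39 (adjusted p = 0.224), with old_AL 4 the highest of the 11 arrays. This probe was not refitted without old_AL 4. Pairwise correlations of the 3 probes over the 11 arrays were 0.0512, −0.053 and 0.238.

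Oprd1, the delta receptor, at which enkephalins act, had overlapping groups, with 1 array far above the rest. Its scaled signals were 10.4, 11.3, 11.1 and 12.0% in young_AL, 9.84, 10.8 and 27.0% on old_AL 2 to 4, and 10.8, 8.45, 10.2 and 10.1% in old_CR. On old_AL 4 the 2 spots of the probe differed by an SD of 1.12 on the log2 scale, against 0.093 or less on the other 10 of the 11 arrays. With age the difference was 0.35 ± 0.29 on 11 arrays and −0.11 without old_AL 4. With diet it was −0.53 ± 0.29 (95% interval −1.19 to 0.13) and −0.07 without that array.

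Oprk1, the kappa receptor for dynorphins, overlapped in all 3 groups. Its scaled signal ran from 1.62 to 2.72% in young_AL, 2.03 to 2.30% on old_AL 2 to 4 and 1.81 to 2.19% in old_CR. The differences were 0.16 ± 0.16 with age and −0.16 ± 0.16 with diet, and for old_CR against young_AL the 95% interval ran from −0.33 to 0.33.

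Oprl1, the receptor for nociceptin, gave different answers on its 2 probes. The brighter one (A_64_P125150, 1 spot) read 3.90 to 4.14% in young_AL, 3.58 to 5.02% on old_AL 2 to 4 and 3.63 to 4.39% in old_CR, with a difference of −0.11 ± 0.11 with diet. The other (A_43_P12591) read 2.06 to 2.44% in young_AL, 2.18, 2.11 and 1.87% on old_AL 2 to 4, and 2.66, 2.71, 2.45 and 2.32% in old_CR. On this probe every old_CR array lay above every old_AL array. The difference with diet was 0.30 ± 0.08 on 11 arrays (adjusted p = 0.0803 with every probe tested) and 0.32 ± 0.10 on 12 (adjusted p = 0.652). The 2 probes correlated at r = −0.202 over the 11 arrays.

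Penk, whose precursor protein yields the enkephalins, was lowest in old_CR. Its probe had 10 spots per array and read 5.37, 4.80, 4.73 and 5.37% in young_AL, 6.47, 5.69 and 5.01% on old_AL 2 to 4, and 4.12, 4.86, 3.80 and 4.39% in old_CR. Every old_CR array lay below every one of the 3 old_AL arrays, and old_CR 2 fell within the young_AL range. The difference with diet was −0.41 ± 0.10 (1.33-fold, 95% interval −0.65 to −0.18, unadjusted p = 0.0030, adjusted p = 0.0717). Old_CR against young_AL gave −0.24 ± 0.10 (adjusted p = 0.220) and age gave 0.17 ± 0.10 (adjusted p = 0.351). On old_AL 1 Penk read 2.41%, below all other arrays, and on 12 arrays the differences were −0.10 ± 0.26 with diet and −0.14 ± 0.26 with age.

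Pdyn, the precursor of dynorphins, was close to background. It read 0.61 to 2.94% in young_AL, 0.76 to 1.94% on old_AL 2 to 4 and 0.69 to 2.46% in old_CR, and it was not well above background on old_AL 1 and old_AL 3. The groups overlapped, with differences of −0.18 ± 0.61, 0.08 ± 0.61 and −0.10 ± 0.56 for age, diet and both. The 95% interval with diet, −1.28 to 1.44, covers a change of the size measured for Penk.

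**Figure D3:**
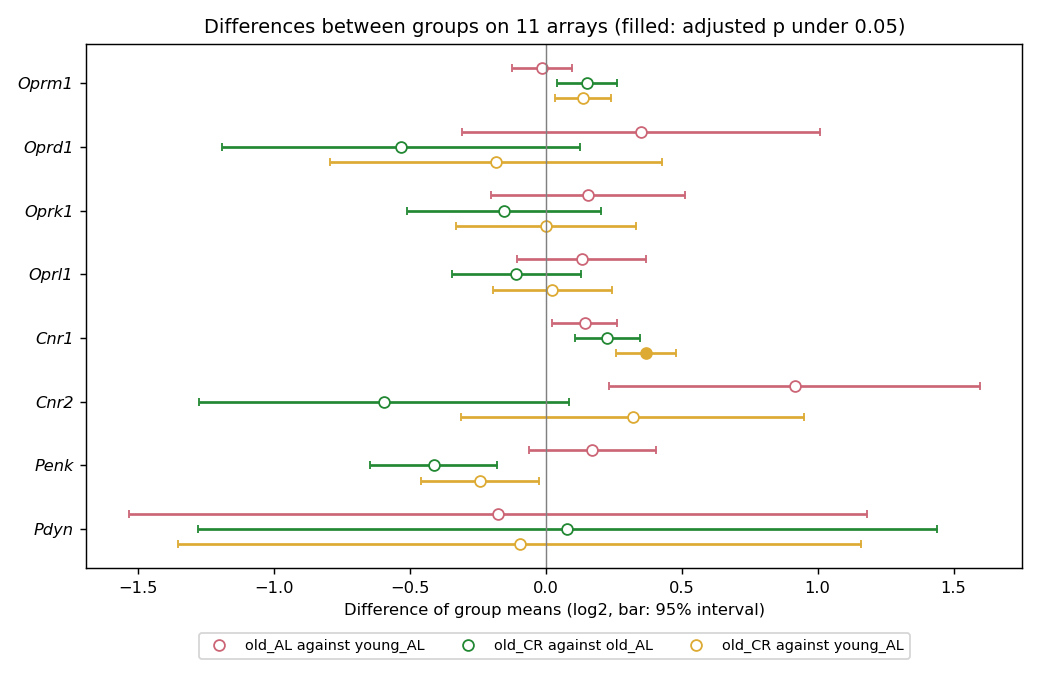
Difference of group means on the log2 scale (x axis) for the 8 genes on the 11 arrays, with 95% intervals from the fit, for old_AL against young_AL (red), old_CR against old_AL (green) and old_CR against young_AL (yellow). The 1 filled point is Cnr1 in old_CR against young_AL at 0.37, and the widest intervals are those of Pdyn.

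By non-overlap of arrays on the 11 arrays, 1 of 8 genes separated old_AL from young_AL (Cnr2, higher), against 19.6% of all genes. Old_CR separated from old_AL in 3 of 8 (Cnr1 and Oprm1 higher, Penk lower), against 23.5% of all genes, and from young_AL in 2 of 8 (Cnr1 and Oprm1, higher), against 15.8%. The separation of Cnr2 with age and those of Cnr1, Oprm1 and Penk with diet are each lost once old_AL 1 is counted. On 12 arrays 0 of 8 genes separated with age and 0 of 8 with diet, against 8.77% and 8.28% of all genes. Old_CR still separated from young_AL in 2 of 8, against 15.7%.

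The members did not vary together as one set. Over the 11 arrays Penk ran opposite to Oprm1 (r = −0.75) and to Cnr1 (r = −0.607), Oprm1 and Cnr1 ran together (r = 0.601), and Oprd1 and Cnr2, both highest on old_AL 4, gave r = 0.751. These values describe 11 arrays that share groups and slides. The genes most like each member were sought among 11574 named genes well above background on all 11 arrays. For Cnr1 they were Hpca (hippocalcin, a neuronal calcium sensor; r = 0.979, Spearman 0.964), Sfxn1 (a mitochondrial serine carrier; r = 0.965) and Hs3st6 (a heparan sulfate sulfotransferase; r = 0.961), where 95% of those genes had r below 0.715. For Oprm1 they were Coa7 (r = 0.872), Pnoc (the nociceptin precursor; r = 0.838, Spearman 0.909) and Cbln1 (a synapse organiser; r = 0.813). For Penk they were Lmo2 (a transcription cofactor of blood and vessel cells; r = 0.957), Frmd8 (r = 0.939) and Rhog (a small GTPase; r = 0.92).

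Oprd1 and Cnr2 were each highest on old_AL 4. Most like Oprd1 were Cacng5, Nkx6-3 and Ptgdr2 (r = 0.984 to 0.985, Spearman 0.782 to 0.891), where 95% of genes had r below 0.843. Most like Cnr2 were Sstr3, Sost and Fgfr3 (r = 0.948 to 0.954, Spearman 0.855 to 0.9), where 95% had r below 0.768. The part of old_AL 4 in these r values was not tested. The 3 genes most like Oprk1 were Grpel2, Ndufaf4 and Hells (r = 0.872 to 0.924), and those most like Oprl1 were Trim58, Mctp2 and Pam16 (r = 0.861 to 0.941). Pdyn was left out because it was not well above background on all 11 arrays.

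Genes that make, cut, carry or answer to the same ligands were read from 8 lists. In opioid peptide precursors and processing, 12 of 12 genes were tested and 0 passed in any comparison on 11 arrays, with 0, 5 and 6 at an unadjusted p under 0.05 for age, diet and both, beside 23.1%, 26.4% and 18.3% of all genes. This list includes the members Penk and Pdyn, and Penk is among the 5 and among the 6. The list medians were −0.02, 0.05 and 0.01, beside 0.03, −0.05 and −0.02 over all genes, and on 12 arrays −0.09, 0.11 and 0.01, beside −0.06, 0.04 and −0.02. Old_CR against young_AL gave −0.39 ± 0.11 for Pomc, the precursor of beta-endorphin (adjusted p = 0.0977), and 0.40 ± 0.12 for Pnoc (adjusted p = 0.128). Cpe, the carboxypeptidase that trims peptide ends, gave 0.14 ± 0.05 with diet on 11 arrays (adjusted p = 0.125) and −0.50 ± 0.49 on 12.

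Opioid peptide breakdown had 9 of 10 genes tested, none of which passed on 11 arrays, with 5, 3 and 3 at an unadjusted p under 0.05, beside 23.1%, 26.4% and 18.3% of all genes. Its median on 11 arrays was 0.22 with age against 0.03 over all genes, and −0.16 with diet against −0.05. Both signs turned on 12 arrays, at −0.05 with age and 0.08 with diet, beside −0.06 and 0.04 over all genes. Anpep, aminopeptidase N, which trims enkephalins, gave 0.70 ± 0.20 with age (adjusted p = 0.0887) but −0.08 on 12 arrays, and Enpep, another aminopeptidase, gave 0.57 ± 0.16 (adjusted p = 0.0801). Ace, the angiotensin-converting enzyme, gave −0.39 ± 0.10 with diet (adjusted p = 0.0733) but 0.08 on 12 arrays. The macrophage, T cell and neutrophil levels given for Cnr2 were also higher on old_AL 2 to 4 than in young_AL, and their part in these values was not tested.

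Of the signalling genes behind the receptors, 1 of 25 coupling and desensitisation genes fell in old_CR against young_AL, beside 2.41% of all genes called, and 0 passed in the other comparisons (3.24% and 1.06% of all genes). It was Rgs4, which speeds the shut-off of inhibitory G proteins: its scaled signal was 3343 to 3563% in young_AL, 3079 to 3429% in old_AL and 2859 to 3091% in old_CR. The difference was −0.21 ± 0.05 (adjusted p = 0.0463), and 3 of 11 further leave-outs kept the call. Gnb5, a G protein beta subunit that pairs with RGS proteins, gave 0.19 ± 0.04 with diet (adjusted p = 0.0587). Of 10 effector channels, 1 fell with age, beside 3.24% of all genes called: Kcnj6, the GIRK2 potassium channel subunit, went from 3.54 to 4.29% in young_AL to 2.34 to 2.82% in old_AL, with 2.92 to 4.04% in old_CR. The difference was −0.54 ± 0.12 (adjusted p = 0.0494), and 1 of 11 leave-outs kept the call. Over all 23 alternatives the call was lost in 18, and the difference ran from −0.98 after quantile normalization to −0.13 after normexp.

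Of 8 receptor partners and traffic genes tested, 0 passed. Gprasp1, which sorts delta and other receptors to lysosomes, gave 0.18 ± 0.05 with diet (adjusted p = 0.0776) and 0.19 ± 0.04 in old_CR against young_AL (adjusted p = 0.0586), with no overlap of the groups in either, as for 23.5% and 15.8% of all genes.

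Endocannabinoid synthesis had 11 of 11 genes tested, of which 1 rose and 1 fell with age, beside 3.24% of all genes called, and 1 fell in old_CR against young_AL, beside 2.41%. Abhd4, which in mouse takes part in a route to anandamide by deacylating its phospholipid precursor, fell in both old groups: from 2858 to 3275% in young_AL to 2277 to 2603% in old_AL and 2436 to 2563% in old_CR. Its differences were −0.33 ± 0.06 with age (adjusted p = 0.0296) and −0.32 ± 0.05 in old_CR against young_AL (adjusted p = 0.0248), each kept in 5 of 11 leave-outs. With age these were without young_AL 4, old_AL 4 and old_CR 1, 2 and 3, and dropping an old_CR array could not change that difference. In old_CR against young_AL they were without young_AL 4, old_CR 2 and old_AL 2, 3 and 4, and dropping an old_AL array could not change that difference. On 12 arrays the adjusted p was 0.544 with age and 0.821 in old_CR against young_AL. Inpp5d, an inositol phosphatase of blood cells placed here for a macrophage route to anandamide known from mouse, rose with age by 0.23 ± 0.04 (adjusted p = 0.0256), with 37.7 to 39.2% in young_AL, 42.8 to 46.7% in old_AL and 38.2 to 40.2% in old_CR. Its call held in 8 of 11 leave-outs, and on 12 arrays its difference was −0.09. Its second probe gave 0.37 ± 0.10 and did not pass (adjusted p = 0.0786 with every probe tested). Macrophage markers were higher on the same old_AL arrays than in young_AL, and their part in the Inpp5d difference was not tested. Napepld, which cleaves anandamide from that phospholipid directly, gave −0.31 ± 0.08 in old_CR against young_AL (adjusted p = 0.0766).

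Endocannabinoid breakdown and transport had 6 of 8 genes tested, of which 1 rose with age, beside 3.24% of all genes called, and 1 fell in old_CR against young_AL, beside 2.41%. Faah had no matched probe and Ptgs2 was not well above background. Naaa, which hydrolyses the anandamide relative palmitoylethanolamide, rose with age by 0.30 ± 0.07 (adjusted p = 0.0494), from 8.14 to 9.58% in young_AL to 9.96 to 11.4% in old_AL, and 1 of 11 leave-outs kept the call. It read 9.62 to 10.8% in old_CR, also above every young_AL array. Over all 23 alternatives the call was lost in 18, and the difference was 0.033 on 12 arrays and 0.14 after quantile normalization or median centring. Fabp7, a fatty acid carrier of satellite glia, fell in old_CR against young_AL by 0.60 ± 0.11 on the log2 scale (adjusted p = 0.0273, kept in 4 of 11 leave-outs), from 212 to 284% to 154 to 178%. It read 195 to 254% on old_AL 2 to 4, which overlapped young_AL. The satellite glia markers, 9 genes that include Fabp7, ran from −0.27 to −0.18 in old_CR against −0.10 to 0.04 in young_AL, and their part in the Fabp7 difference was not tested. Mgll, which breaks down 2-arachidonoylglycerol, gave −0.19 ± 0.06 in the same comparison (adjusted p = 0.130).

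Among 8 tested of 10 other receptors of cannabinoids and related lipids, 1 rose with age, beside 3.24% of all genes called. Trpa1, the irritant-gated channel of nociceptors that some cannabinoids open, read 13.1 to 16.6% in young_AL, 19.5 to 22.6% in old_AL and 14.3 to 16.7% in old_CR. Its difference with age was 0.43 ± 0.09 (adjusted p = 0.0462), no leave-out of the 11 kept the call, and on 12 arrays it was −0.14. Ppara, a nuclear receptor for palmitoylethanolamide, gave 0.98 ± 0.29 with age (adjusted p = 0.0965) and −0.95 ± 0.29 with diet (adjusted p = 0.0980). No gene of the 8 lists passed with diet in old rats on 11 arrays, and none passed in any comparison on 12 arrays. There each list held 0 to 3 genes at an unadjusted p under 0.05, beside 6.71%, 5.96% and 2.72% of all genes for age, diet and both.

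**Figure D4:**
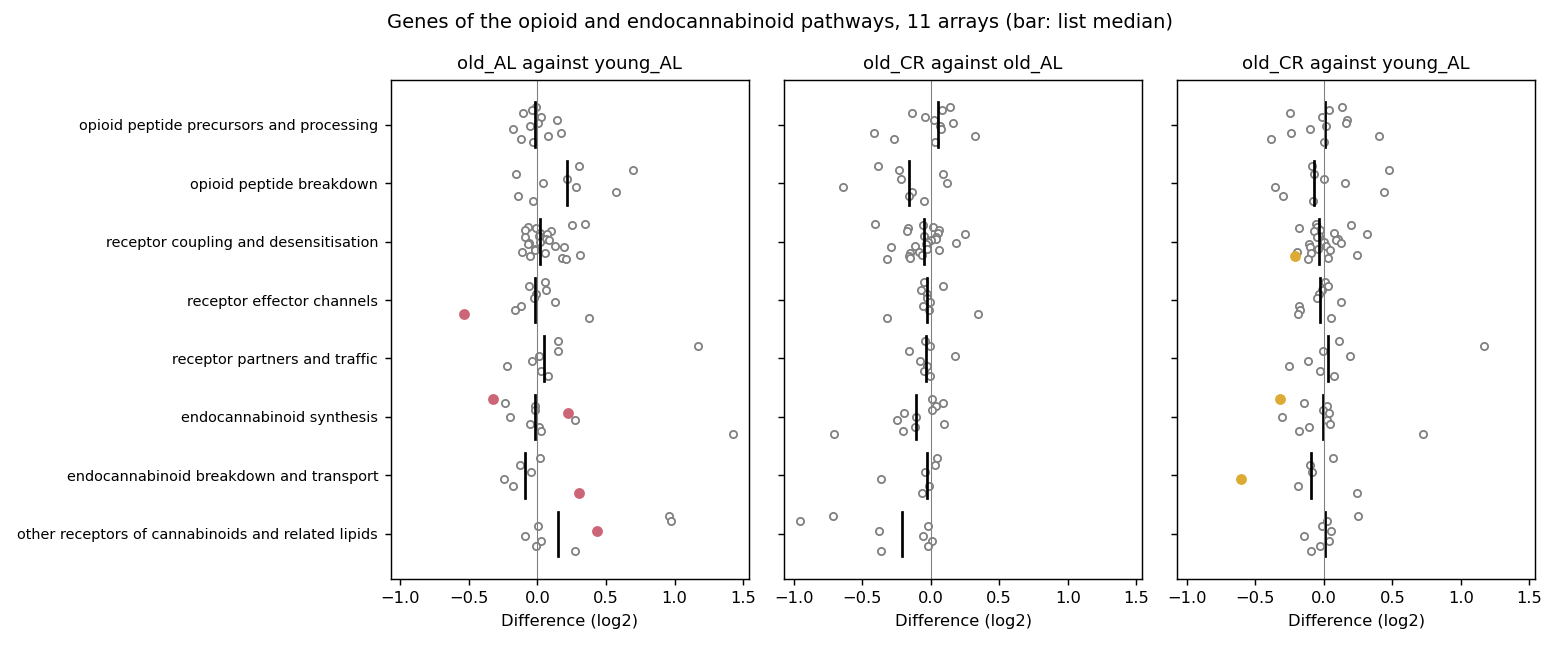
Log2 differences (x axis) of the tested genes of the 8 pathway lists in the 3 comparisons on 11 arrays, one point per gene, filled where the adjusted p was under 0.05, with each list's median as a black bar. Filled points number 5 with age, 0 with diet in old rats and 3 in old_CR against young_AL, and the list medians lie between −0.21 and 0.22.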

How the data were processed

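The authors deposited linear spot intensities, made by Agilent Feature Extraction 10.7 per the submitters' processing notes. The processed intensity was already background-subtracted within each array, per the file headers, and not scaled between arrays. The deposited table of the whole series held the same values (largest difference 0).

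Log2 of that intensity minus the array's 75th percentile was analysed. Outlier-flagged spots were dropped, and replicate spots were averaged. A probe was kept where a share of 0.5 or more of its spots was well above background on 4 arrays or more. A gene was read on its brightest probe. Probes were named by matching accessions to a RefSeq table of assembly GRCr8, used for names alone; 17998 of 30367 matched, and the others were tested under their accession. Groups were compared with limma 3.58.1 (lmFit, eBayes) in R 4.3.3, with the data.table package for reading (version 1.17.8) and Benjamini-Hochberg adjustment over all genes and a threshold of 0.05. The fit was tested on simulated data. The number of arrays limits the precision.

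The members, the lists and the choice to leave out old_AL 1 were made with earlier results of these data known. Members were all named; of each list, the genes named were those that passed or were among the 4 smallest p-values of a comparison, and up to 3 most alike genes were named per member by Pearson r. Groups came from the labels, and each array is a rat. Alternatives were other scalings, normexp with an offset of 50, other filters and probe rules, the series table, the compared groups alone, array weights, a block for the replicate number, and leaving out each array.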

Additional observations from a re-analysis of the deposited data

Results flagged for a closer look

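In 4 of 36 groups tested over the 12 probes, 1 array lay further from its group than Dixon's 95% limit, where chance gives about 1 group in 20. All 4 cases were old_AL 1. The 36 groups share the same 12 arrays and are not independent, and old_AL 1 had already been set apart, so the count is descriptive. Values are log2 of signal over the array's 75th percentile. Cnr1 read −1.23 on probe A_44_P1030258, against −2.48 to −2.36 on the other old_AL arrays, and −3.81 on probe A_43_P11563, against −2.86 to −2.69. Oprm1 read −1.93 on probe A_64_P061205, against −2.75 to −2.66. Oprl1 read −7.24 on probe A_64_P125150, where it was not well above background, against −4.80 to −4.32. Of these 4 readings, 2 were above the rest of the group and 2 below.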

How the results depend on the processing

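Over 23 alternatives, 488 of 549 values of the 8 genes kept their sign and their side of the threshold, 46 changed sign, 12 passed newly and 3 no longer passed. Some of these could not change: the series table held the same values as the main fit. Leaving out an array of the group not compared also kept the difference itself. In old_CR against young_AL the 1 called gene, Cnr1, became 0 on all 12 arrays and 0 to 1 when each array was left out, the 0 without young_AL 3. In old_CR against old_AL the count of 0 became 2 after quantile normalization (Cnr1 at 0.31, Oprm1 at 0.26), 2 after median centring (Cnr1 at 0.40, Oprm1 at 0.32), 3 after normexp (Cnr1, Oprk1 and Penk) and 2 with array weights (Cnr1 at 0.26, Penk at −0.43). Of all genes, 1.88%, 15.8%, 22.7% and 5.8% were called with diet in these settings, in the same order. In old_AL against young_AL the count of 0 became 3 after normexp (Cnr2, Oprk1 and Penk), where 18.4% of all genes were called. Over all genes, median centring moved the median difference with age from 0.03 to −0.13 and that with diet from −0.05 to 0.12. The share of calls that were higher went from 61.5% and 25.2% (age, diet) to 22.9% and 69.5% after quantile normalization, 9.43% and 92.2% after median centring, and 86.3% and 10.7% after normexp. Calls over all genes fell from 676, 222 and 503 to 27 and 0 (4701 at an unadjusted p under 0.05 in limma) when only the compared groups were fitted, while old_CR against young_AL went to 836. Median centring gave 3404, 3303 and 191 calls, normexp 3838, 4732 and 459, and array weights 910, 1209 and 1775. Causes were not tested.

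With the replicate number as a block, the count of called members in old_CR against young_AL was 0 (Cnr1 adjusted p = 0.0809), calls over all genes were 20, 1 and 17, and Pdyn with diet was −0.10. The deviations of same-numbered arrays correlated between −0.0885 and 0.0865, and 4 of 11 arrays correlated best with their own number. On all 12 arrays the replicate number was also the column of the array on its slide. The labels do not say whether a number marks a shared batch, and these correlations cannot decide it.

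Signs also changed as follows (log2 differences). On 12 arrays, with age, they were −0.046 for Oprd1, −0.036 for Oprk1, −0.55 for Oprl1, 0.17 for Oprm1, −0.14 for Penk, −0.092 for Inpp5d and −0.14 for Trpa1, and with diet −0.069 for Cnr1, 0.036 for Oprk1, 0.57 for Oprl1 and −0.040 for Oprm1. Quantile normalization gave −0.35, −0.17 and −0.12 with age for Oprk1, Oprl1 and Penk, and 0.38 and 0.21 with diet for Oprk1 and Oprl1. Median centring gave −0.017, −0.0041 and −0.028 with age for Cnr1, Oprk1 and Oprl1, and 0.015 and 0.062 with diet for Oprk1 and Oprl1. Normexp gave 0.10 with age and −0.0059 with diet for Oprm1, and −0.014 for Oprk1 in old_CR against young_AL. The mean of a gene's probes gave 0.26 with age and −0.22 with diet for Oprm1, and 0.097 with diet for Oprl1. Array weights gave −0.031, 0.0080 and −0.023 for Oprl1 with age, diet and both. Leaving out each array gave ranges of −0.11 to 0.62 for Oprd1 and −0.048 to 0.014 for Oprm1 with age, −0.095 to 0.15 for Oprk1 and −0.016 to 0.075 for Oprl1 in old_CR against young_AL, and, for Pdyn, −0.61 to 0.25, −0.30 to 0.51 and −0.47 to 0.33.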
